A study of Mus musculus with 2 samples.

Results

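The transcripts of 9 growth factor genes were followed in immune cells sorted from mouse pancreatic islets. They were Pdgfa, Pdgfb, Pdgfc and Vegfa, which encode ligands of the platelet-derived and vascular endothelial growth factor family, Igf1, Hbegf and Areg, Gdf15, and Grn. The genes were taken by symbol from the feature table of the deposit, 9 of 32285 genes. Wild-type C57BL/6J males gave the islets, those of 6 to 8 animals were pooled, and living cells positive for CD45 and negative for Epcam were sorted. The design text calls the mice myeloid wild type and gives no further allele, and no age is stated. The 1 pooled sample was read as an mRNA library and a library of antibody-derived tags on the same cells. No animal or day was replicated. Every interval below is therefore a 95% interval for counting error alone, and none of the differences could be checked against replicates.

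These factors act at short range or as circulating signals. PDGF and VEGF ligands are secreted dimers that bind receptor tyrosine kinases on mesenchymal and endothelial cells. IGF-1 acts through the IGF-1 receptor, whereas HB-EGF and amphiregulin are made as membrane-anchored precursors that sheddases release to act on EGF-family receptors. GDF15 is a distant member of the TGF-beta superfamily induced by cell stress, and progranulin, the product of Grn, is both secreted and carried to lysosomes. In islets the resident macrophages lie against blood vessels and beta cells.

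Surface CD9, a tetraspanin, and surface CD206, the mannose receptor encoded by Mrc1, were counted through the oligonucleotide on each antibody. The design text names the CD9 antibody alone, whereas the protocol names both and the matrix held both tags. All surface values below are counts of these 15-base tags, printed in full in capitals.
CD9: TAGCAGTCACTCCTA
CD206: TCAACTCGGTGTTGC

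Of 2237 barcodes, 2175 cells were kept, with a median of 19348 RNA UMIs (unique molecular identifiers, each standing for 1 captured molecule). Macrophages were the 1792 cells in which C1qa, C1qb and C1qc together reached 2000 CPM (UMI counts summed over a cell or class and scaled to the same total), 82.4% of kept cells, and 56 cells lay between 1500 and 2500 CPM. Of them, 162 lay in unnamed clusters of shallow cells (median 3181 UMIs) and 26 in clusters of other types. Lymphocytes were 146 cells, of which 109 were T and NK cell-like, 29 B cell-like and 8 ILC2-like (group 2 innate lymphoid cells). Dendritic cells were 51 cells of 1 cluster with markers of both conventional types. That cluster of 70 cells also passed for 6 of 12 macrophage markers and 6 of 9 cycling markers. Its other 19 cells passed the C1q gate and were counted as macrophages. The cycling markers summed to 1163 CPM in dendritic cells and 177 CPM in macrophages. Ptprc, which encodes CD45, was found in 94.4% of macrophages, 98.6% of lymphocytes and 100% of dendritic cells. It was found in 15.8% of 19 endothelial-like cells and 11.9% of 42 endocrine-like cells, so these 2 clusters went against the CD45 label of the sort. Epcam was found in 69.0% of the endocrine-like cells and 35.3% of dendritic cells (22.4 to 49.9%), although the sort took cells without it. It was found in 6.85% of lymphocytes and 3.35% of macrophages. Median depth was 20200 UMIs in macrophages, 9188 in lymphocytes and 24262 in dendritic cells. As a measure of free RNA, lymphocytes held C1qa at 0.92% of the macrophage level, Apoe at 1.68% and Ctsb at 3.33%.

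Macrophages carried most of the factors. Against lymphocytes, 7 of the 9 genes were at least 1.5-fold higher in macrophages, Areg was lower and Vegfa was neither, whereas 22.7% of the 10215 genes with at least 100 UMIs in the 2 sums were that much higher and 49.1% that much lower. The median log2 ratio was 2.08 over the 9 genes, with genes at 0 in lymphocytes set at their bound, and −0.56 over all genes. Against dendritic cells all 9 were at least 1.5-fold higher, beside 22.3% of 10029 genes higher and 27.7% lower, with a median log2 ratio of 2.05 for the 9 genes and −0.17 for all. At a threshold of 2-fold, 7 genes were higher and 0 lower against lymphocytes (17.9% and 33.8% of all genes), and 7 higher and 0 lower against dendritic cells (14.7% and 13.2%). All 9 passed the minimum of 100 UMIs. Igf1, Pdgfc and Hbegf passed it against lymphocytes through macrophage UMIs alone, as did Igf1 and Pdgfc against dendritic cells, where Hbegf had 2 dendritic cell UMIs. These genes could pass only by being higher in macrophages, so the counts of genes higher are descriptions and support nothing. Each ratio compares cells of the same pool, and fewer transcribing cells and less RNA per cell are told apart here only by the shares of cells with a UMI.

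**Figure D1:**
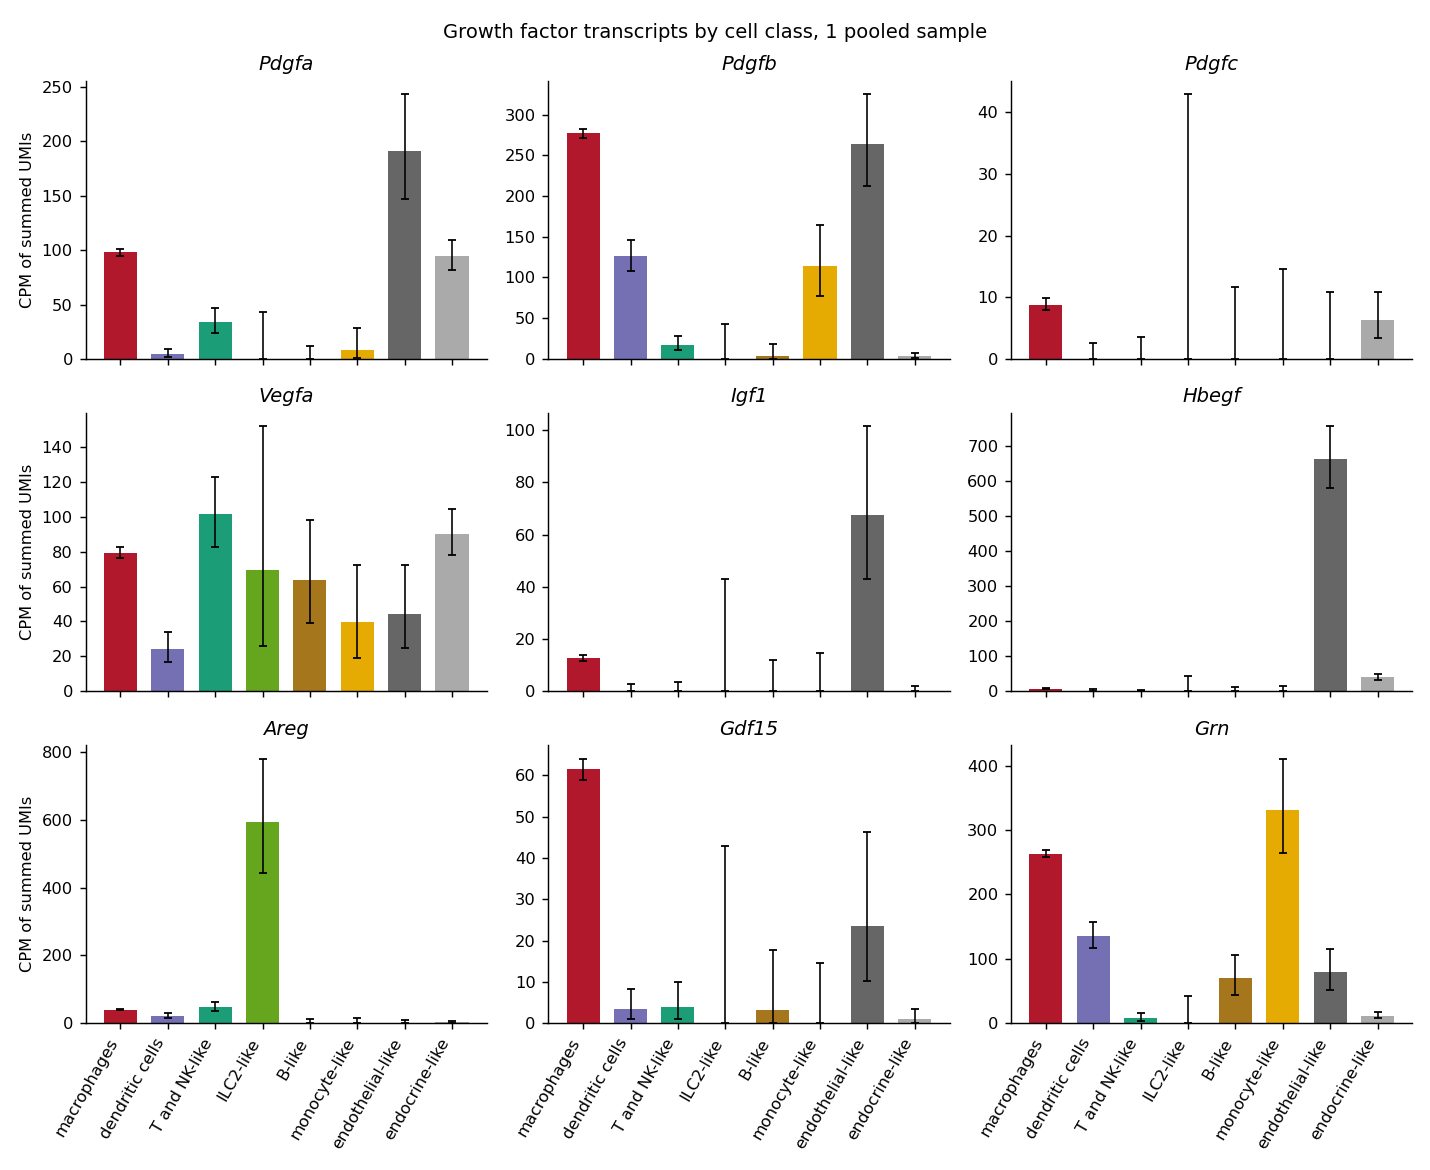
Level of each growth factor gene in 8 cell classes of the 1 pooled sample, as UMIs summed over the class and scaled to CPM (linear axes that differ between panels). Bars give the level and lines the exact 95% Poisson interval of counting error, with bars of height 0 where no UMI was found. Macrophages carried Igf1, Pdgfc and Gdf15 above the other immune classes, Areg stood at 594 CPM in ILC2-like cells, and Hbegf at 664 CPM in endothelial-like cells.

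Among the immune classes the PDGF chains were highest in macrophages. Pdgfb, the B chain, stood at 277 CPM in macrophages (272 to 282), against 13.2 CPM in lymphocytes and 126 CPM in dendritic cells. It was thus 20.9-fold higher in macrophages than in lymphocytes (13.4 to 34.8) and 2.19-fold higher than in dendritic cells (1.89 to 2.56). Of the 1792 macrophages 79.6% held a Pdgfb UMI, as did 10.3% of lymphocytes and 62.7% of dendritic cells. Thinned to 10000 UMIs, with shallower cells left out, the shares were 73.5%, 4.51% and 51.0% in the same order. They rest on 1579 macrophages, 59 lymphocytes and 51 dendritic cells. Lymphocyte Pdgfb stood at 4.78% of the macrophage level. The same percentage was 0.92% for C1qa, 0.71% for Lyz2, 1.63% for Trem2, 1.68% for Apoe and 3.33% for Ctsb. Outside the immune classes, the endothelial-like cells held Pdgfb at 264 CPM, 42 of 90 UMIs in 1 cell, and Pdgfa at 191 CPM (147 to 243), above the macrophage level of that gene.

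Pdgfa, the A chain, stood at 97.9 CPM in macrophages, 24.4 CPM in lymphocytes and 4.26 CPM in dendritic cells. The ratio to lymphocytes was 4.02 (2.88 to 5.78), but 1 T or NK cell-like cell held 21 of the 35 lymphocyte UMIs, and without the cell with most UMIs in each group the log2 ratio was 3.31, against 2.01 with it. Pdgfa was found in 58.9% of macrophages, 4.11% of lymphocytes and 7.84% of dendritic cells, and B cell-like and ILC2-like cells held none. With the macrophage gate at 4000 CPM, where the dendritic class held 55 cells, the log2 ratio to dendritic cells was 2.82, against 4.52 at 2000 CPM. Pdgfc, whose product is secreted with an inhibitory domain that must be cut off, was rare: 321 UMIs in 155 macrophages (8.65%) and 0 in lymphocytes and dendritic cells. Taking 3 counts per class as the floor, macrophages were at least 4.22-fold higher than lymphocytes and at least 4.14-fold higher than dendritic cells.

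Vegfa, the main angiogenic VEGF, had nearly the same level in macrophages and lymphocytes, with a ratio whose interval included 1. It stood at 79.6 CPM in macrophages, 91.2 CPM in lymphocytes and 24.1 CPM in dendritic cells, a ratio of 0.872 to lymphocytes (0.732 to 1.05) and of 3.30 to dendritic cells (2.36 to 4.77). T and NK cell-like cells held 101 CPM, B cell-like cells 63.6 CPM and ILC2-like cells 69.8 CPM. The share of cells with a UMI was 37.8% in macrophages and 25.3% in lymphocytes. Thinned to 10000 UMIs, which kept 1579 macrophages and 59 lymphocytes, the shares were 30.9% and 30.5%. Thinned to 5000 UMIs, which kept 1669 macrophages and 131 lymphocytes, they were 21.4% and 16.5%. Of all 9 genes, Vegfa was the one whose level in each lymphocyte subset was within 1.5-fold of the macrophage level.

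Igf1, the insulin-like growth factor, was found in 107 macrophages (5.97%) at 12.8 CPM (11.7 to 14.0) and in no lymphocyte or dendritic cell. Macrophages were at least 6.12-fold above lymphocytes and at least 6.01-fold above dendritic cells at the floor of 3 counts. The median Igf1-positive macrophage held 2 UMIs and the highest 28. In the 19 endothelial-like cells 3 cells held 23 Igf1 UMIs, among 340315 RNA UMIs of that class. This level, from 3 cells, was above that of macrophages. Macrophages with an Igf1 UMI carried the 8 endothelial markers at a sum of 17.0 CPM, against 16.5 CPM in macrophages without one, and stromal markers at 5.40 against 5.44 CPM, with Col3a1, Lum and Pdgfrb at 0 in the positive cells.

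The EGF-receptor ligands Areg and Hbegf had their highest levels outside macrophages. Areg, which encodes amphiregulin, a product of ILC2 cells in tissue repair, stood at 594 CPM (442 to 780) in the 8 ILC2-like cells. Their UMI counts were 18, 8, 7, 7, 7, 3, 1 and 0, so 7 of 8 cells held the transcript and 1 held none. Macrophages stood at 40.3 CPM, T and NK cell-like cells at 47.3 CPM, of which 1 cell held 19 of 49 UMIs, and dendritic cells at 22.0 CPM, of which 1 cell held 23 of 31 UMIs. The macrophage to dendritic cell ratio was 1.83 (1.29 to 2.71), and its log2 value was 2.73 without the cell with most UMIs in each group, against 0.88 with them. The 29 B cell-like and 17 monocyte-like cells held none. Macrophages were 0.579-fold the lymphocyte level (0.473 to 0.716). Without the ILC2-like cells the log2 ratio turned to 0.15 (−0.26 to 0.59), so the lymphocyte excess rested on 8 cells. By number, 250 of 1792 macrophages (14.0%) held an Areg UMI, as did 14.4% of lymphocytes. Macrophages held 90.2% of the Areg UMIs of all kept cells. They made up 82.4% of those cells and held 36443091 of their 42740275 RNA UMIs. The 10 ILC2 markers summed to 512 CPM in macrophages with an Areg UMI and 647 CPM in macrophages without one, with Gata3 and Klrg1 at 0 in the positive cells and Il13 at 0 in both.

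The RefSeq promoter table (build GRCm38.p6) held 10 windows of 7 of the 9 genes, each running 250 bases upstream and 50 bases downstream of an annotated start. Areg is shown because its window alone among the 10 held a full cAMP response element, TGACGTCA, which is a palindrome and was searched on both strands. Of 32851 windows 1.79% held it. The 120 bases upstream of the Areg start, on the forward strand at chr5:91139479-91139598, follow with this element and a TATA box (TATAAA, in 13.6% of windows) in capitals. Of the other motifs searched on both strands, ACGTG (19.6% of windows), the core of the hypoxia response element, was in a Vegfa and a Gdf15 window, TGACNNNGC (12.4%) in a Pdgfa and a Pdgfc window, and TGANTCA (7.81%) in an Igf1 window.
Areg: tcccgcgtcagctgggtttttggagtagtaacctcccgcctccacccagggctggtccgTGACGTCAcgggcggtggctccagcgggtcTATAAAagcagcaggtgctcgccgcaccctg

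Hbegf, which encodes HB-EGF, a heparin-binding ligand whose membrane-bound precursor is known to associate with CD9 in monkey and human cells, was scarce in immune cells. It stood at 7.27 CPM in macrophages, with 265 UMIs in 100 cells (5.58%), at 0 in lymphocytes and at 1.42 CPM in dendritic cells (2 UMIs). Macrophages were at least 3.48-fold above lymphocytes at the floor, and 5.13-fold above dendritic cells (1.41 to 42.5). The 19 endothelial-like cells held 664 CPM, with a UMI in 14 of 19 cells, and the 42 endocrine-like cells 38.9 CPM, so macrophages held 45.5% of all Hbegf UMIs although they made up 82.4% of cells. Hbegf-positive macrophages summed to 13.4 CPM over the 8 endothelial markers, with Egfl7 at 0, against 16.8 CPM in Hbegf-negative macrophages. Nrg4, the one other EGF-family ligand with at least 100 UMIs, stood at 6.26 CPM in macrophages and 2.09 CPM in lymphocytes, where it had 3 UMIs (ratio 2.99, 1.01 to 14.6). Egf, Tgfa, Btc, Ereg and Epgn were under that minimum.

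Gdf15 was a macrophage transcript, at 61.4 CPM (58.9 to 64.0), against 3.48 CPM in lymphocytes and 3.55 CPM in dendritic cells. The ratios were 17.6 (7.55 to 54.4) and 17.3 (7.41 to 53.4), and lymphocytes and dendritic cells held 5 UMIs each. With the macrophage gate raised to 4000 CPM the log2 ratio to dendritic cells was 1.03, against 4.11 at 2000 CPM. Without the cell with most UMIs in each group it was 6.36. Gdf15 was found in 22.0% of macrophages, 3.42% of lymphocytes and 3.92% of dendritic cells. A list of 12 immediate-early and heat-shock genes, chosen after the data were seen, summed to 5122 CPM in macrophages, 977 CPM in lymphocytes and 1582 CPM in dendritic cells, and its part in the class differences was not tested.

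Grn was the gene most widely found. A UMI was present in 91.2% of macrophages (89.8 to 92.5%), 12.3% of lymphocytes and 84.3% of dendritic cells, and the level was 263 CPM, 20.9 CPM and 136 CPM in the same order. Macrophages were 12.6-fold above lymphocytes (8.82 to 18.7) and 1.93-fold above dendritic cells (1.68 to 2.24). The 17 monocyte-like cells stood higher still, at 332 CPM (265 to 411). Within lymphocytes, B cell-like cells held 69.9 CPM (43.8 to 106), 26.6% of the macrophage level, whereas T and NK cell-like cells held 7.73 CPM, 2.94% of it. In the same T and NK cell-like cells C1qa stood at 0.90% of its macrophage level, Apoe at 1.26%, Lyz2 at 0.49%, Trem2 at 2.26% and Ctsb at 3.46%. Whether this Grn was free RNA was not tested. The Grn window alone among the 10 held TCANGTGA, the E-box form bound by MITF and TFEB, factors that drive lysosomal genes; 4.18% of windows held it on either strand. Whether MITF or TFEB acts on Grn in these cells was not tested. The element is shown beside Mitf below, and lies on the reverse strand, in capitals, within the 220 bases upstream of the Grn start at chr11:102430287-102430506, forward strand.
Grn: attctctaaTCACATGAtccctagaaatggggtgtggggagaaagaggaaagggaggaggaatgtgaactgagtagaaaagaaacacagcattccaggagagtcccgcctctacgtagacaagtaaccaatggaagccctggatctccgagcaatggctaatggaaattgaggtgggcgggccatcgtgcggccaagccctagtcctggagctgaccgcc

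Genes that handle these factors were set beside the same background, 22.7% of all genes higher in macrophages than in lymphocytes and 49.1% lower. Of the 13 progranulin-handling genes, 11 had enough UMIs against lymphocytes, and 10 were at least 1.5-fold higher in macrophages, Grn among them, with a median log2 ratio of 3.97. They included Psap (15.7-fold), whose product prosaposin carries progranulin to lysosomes, the proteases Ctsb (30.02-fold) and Lgmn (17.8-fold), and Mitf (71.5-fold, 37.7 to 156). Tmem106b, a lysosomal membrane protein gene, was lower (0.480-fold). The receptor Sort1 had 52 UMIs in macrophages and 0 in lymphocytes, under the minimum. Of 16 release and activation genes, 11 were tested, 8 were higher and 2 lower, with a median of 2.03. Adam17, the main sheddase of EGF ligands, was 4.70-fold higher (3.79 to 5.90), its partner Rhbdf2 10.4-fold and Plau, a protease that can activate growth factor precursors, 67.7-fold (31.1 to 184). The convertases Furin (0.489-fold) and Pcsk7 (0.295-fold) were lower. Against dendritic cells, where 22.3% of all genes were higher and 27.7% lower, Adam17 (2.81-fold) and Rhbdf2 (2.88-fold) were again higher. Plau was at 0 in dendritic cells (133-fold at the floor of 3 counts), and Adam8 was lower (0.128-fold).

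Of 16 receptor genes for these ligands, 5 had enough UMIs against lymphocytes, with a median log2 ratio of −1.47, against −0.56 over all genes. The VEGF and semaphorin co-receptors Nrp2 (17.6-fold) and Nrp1 (1.72-fold) were higher in macrophages, and Igf1r (0.362-fold), Insr (0.233-fold) and Igf2r (0.0661-fold) were lower. Pdgfra and Erbb2 had 0 UMIs in both classes, and Egfr had 25 in macrophages and 0 in lymphocytes. Of the other growth factors on the list, 9 of 16 were tested, 6 were higher and 3 lower, beside 22.7% and 49.1% of all genes. Their median log2 ratio was 1.48. Hgf, the hepatocyte growth factor, had 0 UMIs in lymphocytes and was 16.4-fold above them at the floor of 3 counts. Osm (6.86-fold), Il6 (5.32-fold) and Nampt (2.78-fold) were also higher. Tgfb1 (0.578-fold) and Mif (0.534-fold) were lower, and Bmp2 stood at 0.663-fold (0.294 to 1.85).

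Genes known to accompany Gdf15 in the integrated stress response differed in both directions. With Gdf15 itself, 10 of 12 were tested, 5 were higher in macrophages than in lymphocytes and 3 lower (22.7% and 49.1% of all genes), with a median log2 ratio of 1.27. Atf3, a stress-induced transcription factor, was 32.4-fold higher and Ppp1r15a, a phosphatase subunit, 4.21-fold higher. The cystine transporter gene Slc7a11 was at 0 in lymphocytes (160.1-fold at the floor of 3 counts). Trib3 (0.132-fold) and Sesn2 (0.233-fold) were lower. Of 12 listed hypoxia genes, Vegfa among them, 9 were tested, 4 were higher and 3 lower, beside the same shares of all genes. Their median was −0.10 with Vegfa, and 0.36 over the other 8 genes without it. Hilpda, a lipid droplet gene, was 2.47-fold higher, whereas Hif1a, the oxygen-regulated transcription factor, was lower (0.297-fold).

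The 9 transcripts differed in how evenly macrophages carried them. Grn, Pdgfb and Pdgfa were spread wide: 50% of their macrophage UMIs lay in 381, 270 and 208 cells. For Vegfa it was 114 cells, for Gdf15 48, for Pdgfc 35, for Areg 30, and for Igf1 and Hbegf 18 each. The top 1% of macrophages held 50.2% of Igf1 UMIs and 7.21% of Grn UMIs. A macrophage held 3 of the 9 genes in 32.2% of cases, 4 in 26.8% and none in 3.12%, and the 56 cells with none had a median of 1895 RNA UMIs. Some rare transcripts shared cells. Of the 100 Hbegf-positive macrophages 29.0% held Areg and 40.0% held Gdf15, whereas 14.0% and 22.0% of all macrophages did. The Hbegf-positive cells were deeper, with a median of 24126 UMIs against 19909.5 in the Hbegf-negative ones.

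**Figure D2:**
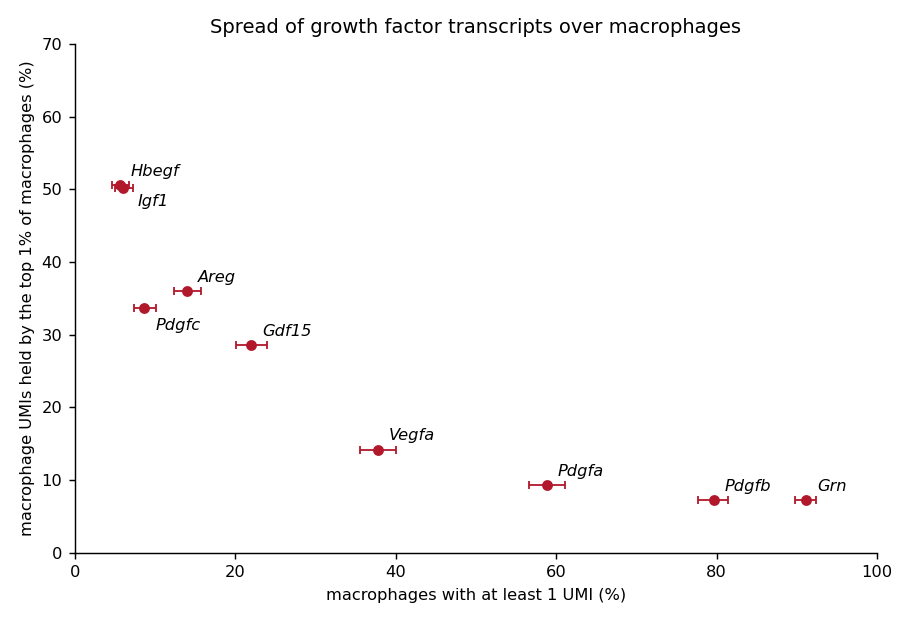
Each point is 1 growth factor gene in the 1792 macrophages: the x axis gives the percentage of macrophages with at least 1 UMI (lines, exact 95% intervals) and the y axis the percentage of the gene's macrophage UMIs held by the top 1% of macrophages. Igf1 and Hbegf lie at 5.97% and 5.58% of cells with about 50% of UMIs in the top 1%, and Grn and Pdgfb lie at the other end.

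Within macrophages the factors fell into different clusters. The 9 genes, the other listed genes, Cd9 and Mrc1 (114 in all) were left out of the clustering, so their levels could be compared between the 10 macrophage-like clusters and 1 unnamed shallow one. Folds below set the macrophages of 1 cluster against those of the other macrophage-like clusters, which held 1604 of the 1792 macrophages. Cluster values are descriptions of cells from 1 pool.

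Igf1 and Grn peaked in the 104 cells of cluster 8, led by Gpnmb, Pltp and Spp1, which had the highest median CD9 (3398 UMIs) and CD206 (28.5 UMIs). Igf1 stood there at 59.9 CPM (50.9 to 70.1), 6.55-fold above the other macrophage-like clusters (5.36 to 7.98). The share with an Igf1 UMI was 19.2%, against 5.6% in the other macrophage-like clusters, and these cells held 33.5% of macrophage Igf1 UMIs. Grn stood at 472 CPM (446 to 499), 1.91-fold above the other macrophage-like clusters, with a UMI in 100% of cells. The other clusters ranged from 202 to 291 CPM for Grn. Next for Igf1 were cluster 13 (28 cells, 28.4 CPM, where 1 cell held 80% of UMIs) and cluster 2 (15.8 CPM, where 1 cell held 44.4%), whose intervals overlap.

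Pdgfb and Pdgfa were highest in clusters 3 and 2. Cluster 3, led by Il12b, held Pdgfb at 466 CPM and Pdgfa at 139 CPM. Cluster 2, led by Npnt and with a median of 67 CD9 UMIs, held 437 and 133 CPM. Intervals of the 2 clusters overlapped for Pdgfa and for Pdgfb (446 to 487 and 416 to 458 CPM), and cluster 9 held Pdgfa at 126 CPM, within the interval of cluster 2. Both genes were lowest in cluster 4, led by Ifit3 and other interferon-induced genes, at 86.2 CPM for Pdgfb (0.277-fold, 0.250 to 0.307) and 48.3 CPM for Pdgfa (0.459-fold). Median depth was 23896.5 UMIs in cluster 4 and 20015 in cluster 3. Pdgfc differed from both: it was highest in cluster 5, also led by interferon-induced genes, at 17.6 CPM (2.16-fold, 1.63 to 2.83), and stood at 12.7 CPM in cluster 4.

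Vegfa, Hbegf, Areg and Gdf15 were higher in clusters 1, 6 and 9, with exceptions. Cluster 1 was led by the heat-shock genes Hspa1b and Hspa1a. It had the highest Vegfa, 201 CPM (3.09-fold, 2.85 to 3.35), with Hbegf at 21.0 CPM (3.85-fold) and Areg at 86.3 CPM (2.56-fold). Cluster 9, led by Ptgs2, Il10 and Mcoln2, had the highest Hbegf, 34.3 CPM (7.36-fold, 5.70 to 9.48), of which 1 cell held 28.8%, and the highest Areg, 108 CPM (3.25-fold), with Areg in 40.5% of cells. Its Gdf15 was 119 CPM (2.10-fold) and its Vegfa 121 CPM (1.55-fold). Cluster 6, with Cxcl2, Gclc and Hmox1 among its leading genes, had the highest Gdf15, 149 CPM (2.84-fold, 2.57 to 3.14), found in 45.7% of its cells, and Vegfa at 136 CPM (1.79-fold). Its Areg (38.6 CPM, 0.953-fold) and Hbegf (4.79 CPM, 0.620-fold) were not higher. Areg was also high in cluster 4 (75.5 CPM, 2.15-fold), whereas Vegfa, Hbegf and Gdf15 were not.

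The summed level of the 12 immediate-early and heat-shock genes also moved with these clusters. It was 18897 CPM in cluster 1, 7503 CPM in cluster 6 and 6062 CPM in cluster 9, against 1429 to 3564 CPM in the other macrophage-like clusters with more than 100 cells. Cluster 13, with 28 cells, had 8693 CPM of it and 0 Vegfa UMIs. These genes also respond to cell dissociation, and their part in the cluster differences was not tested.

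**Figure D3:**
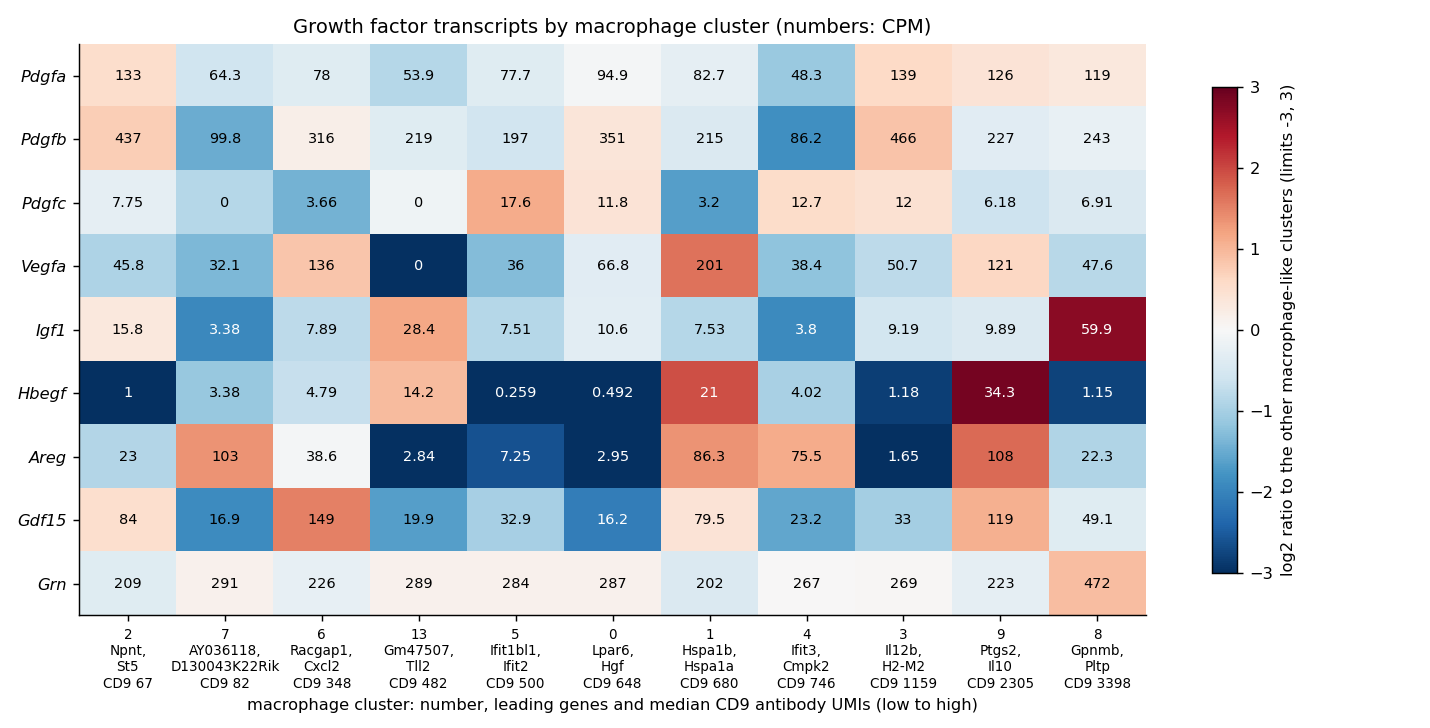
Growth factor genes (rows) in macrophages of 10 macrophage-like clusters and the unnamed shallow cluster 7 (columns, ordered from low to high median CD9 antibody UMIs, with 2 leading genes each). Numbers are CPM and colour is the log2 ratio to macrophages of the other macrophage-like clusters, limited to −3 and 3, with 0 UMIs set at the floor of 3 counts. Igf1 and Grn are highest in cluster 8, Vegfa in cluster 1, Hbegf and Areg in cluster 9 and Gdf15 in cluster 6.

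None of the 9 transcripts differed by 1.5-fold between macrophages high and low in surface CD9, although the intervals of 5 excluded 1, 2 above it and 3 below. The 600 macrophages with the most CD9 tag UMIs, ranked within 10 classes of RNA depth, had a median of 2899 CD9 UMIs, and the 600 with the fewest had 49. Median depth was 20201.5 RNA UMIs in CD9-high cells and 20200 in CD9-low cells, and the summed totals were 12743661 and 11896809. Cd9 mRNA was 7.23-fold higher in CD9-high cells. Of 9095 genes tested, 6.05% were at least 1.5-fold higher and 2.69% that much lower, shares at which a count of 0 among 9 genes is near the background. At 2-fold the counts were again 0 higher and 0 lower, beside 1.85% and 0.847% of all genes. The median log2 ratio was −0.11 for the 9 genes and 0.08 for all genes. Grn stood at 299 CPM in CD9-high macrophages, against 230 CPM in CD9-low ones (ratio 1.30, 1.24 to 1.36), and Vegfa at 92.4 and 77.5 CPM (1.19, 1.09 to 1.30), with a UMI in 45.8% and 31.5% of cells. Areg (36.5 and 50.2 CPM, 0.727, 0.643 to 0.822), Gdf15 (51.5 and 68.7 CPM, 0.750, 0.675 to 0.832) and Pdgfb (248 and 283 CPM, 0.875, 0.833 to 0.919) had intervals under 1. Igf1 stood at 13.4 and 13.7 CPM (0.979, 0.786 to 1.22), Pdgfa at 90.3 and 97.6 CPM, and Pdgfc at 8.40 and 10.4 CPM.

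Single cells moved several of these values, and 2 genes passed 1.5-fold without 1 cell. Hbegf stood at 7.06 CPM in CD9-high macrophages, against 6.89 CPM in CD9-low ones (1.02, 0.751 to 1.40), and without the 1 cell with 32 Hbegf UMIs the ratio was 0.662 (0.465 to 0.938). Without the cell with 64 Areg UMIs, Areg was at 0.629 (0.552 to 0.715). Leaving out the cell with most UMIs of the gene put Pdgfc at 0.724 (0.549 to 0.953) and Pdgfa at 0.907 (0.835 to 0.985). Both intervals then lay under 1. Igf1 was at 1.18 (0.936 to 1.49) without its top cell. Cluster makeup moved with CD9: cluster 8 made up 11.3% of CD9-high and 1.33% of CD9-low cells, and cluster 2 made up 2.50% and 24.0%. Without cluster 8 the log2 ratio of Grn was 0.28, against 0.38 with it, and that of Igf1 was −0.69 (−1.09 to −0.31), against −0.03. Other markers moved with CD9 too. The 8 monocyte markers, all found in both groups, summed to 49.3 CPM in CD9-high macrophages and 15.7 CPM in CD9-low macrophages, and the 13 endocrine markers to 2560 and 3777 CPM. The 12 immediate-early and heat-shock genes summed to 4123 and 5275 CPM. The part of these genes in the CD9 values was not tested.

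Along deciles of CD9, Grn stood at 214 CPM (199 to 230) in the lowest and 310 CPM (293 to 328) in the highest, with 315 CPM in the ninth. Igf1, Areg and Gdf15 ran in no steady direction. Igf1 was at 26.5 CPM in the lowest decile, 4.22 CPM in the one above it and 12.6 CPM in the highest. Areg ranged from 11.1 to 74.5 CPM and Gdf15 from 42.9 to 96.1 CPM, and for both genes the intervals of neighbouring deciles often did not overlap.

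**Figure D4:**
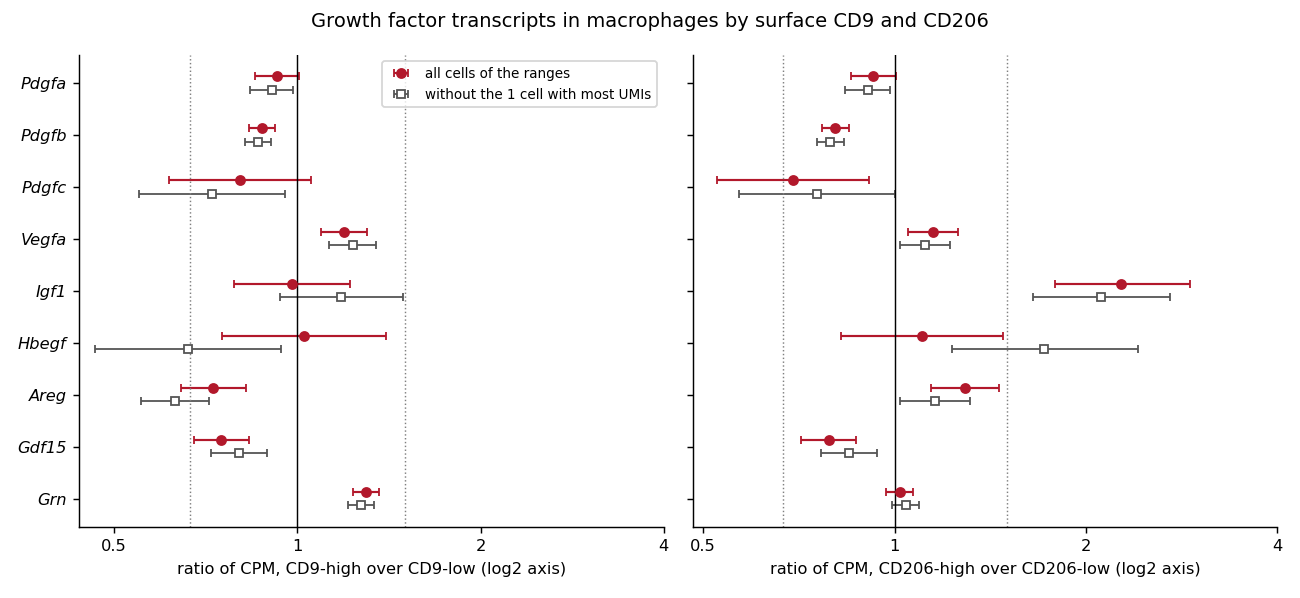
Ratio of CPM between macrophages with the most and the fewest antibody UMIs (600 cells each), for CD9 (left) and CD206 (right), on a log2 axis; lines are exact 95% intervals of counting error and dotted lines mark 1.5-fold. Filled circles use all cells and open squares leave out the 1 cell with most UMIs of the gene, and Igf1 by CD206 alone lies beyond 1.5-fold with all cells.

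Igf1 was higher in macrophages with more surface CD206. The upper 600 macrophages had a median of 28 CD206 UMIs and the lower 600 had 2, so the ranking rests on few tags. Igf1 stood at 18.3 CPM in CD206-high macrophages, against 8.06 CPM in CD206-low ones, a ratio of 2.27 (1.78 to 2.92), with a UMI in 8.67% and 4.00% of cells. Of all 9129 genes tested, 2.52% were at least 1.5-fold higher and 1.58% that much lower, and Igf1 was the one gene of the 9 past 1.5-fold. At 2-fold it was again 1 gene higher and 0 lower, beside 0.712% and 0.394% of all genes. The excess sat in the highest decile of CD206 (41.5 CPM, 35.2 to 48.6, with a UMI in 16.1% of cells), while the other deciles ranged from 3.62 to 13.3 CPM. Cluster 8 made up 18.3% of that decile and 3.33% of the lowest. Without cluster 8 the log2 ratio was 0.70 (0.26 to 1.14), against 1.19 with it.

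Igf1 was also set out by both antibodies. Among CD9-high macrophages Igf1 was at 18.4 CPM in the 306 CD206-high cells and 6.50 CPM in the 118 CD206-low cells, of which 3 held Igf1 and 1 cell 12 of the 16 UMIs. Among CD9-low macrophages it was at 18.5 CPM in the 101 CD206-high cells, where 1 cell held 42.1% of UMIs, and 10.03 CPM in the 300 CD206-low cells. The intervals (15.2 to 22.0 and 3.72 to 10.6 CPM, then 13.1 to 25.4 and 7.63 to 12.9 CPM) did not overlap at either level with all cells. Without the cell with most Igf1 UMIs in each group, the levels were 15.8 CPM (12.9 to 19.2) in CD206-high and 1.65 CPM (0.450 to 4.23) in CD206-low cells among CD9-high macrophages. Among CD9-low macrophages they were then 10.8 CPM (6.75 to 16.3) and 8.34 CPM (6.17 to 11.03), and these intervals overlap. Igf1-positive macrophages had a median of 19 CD206 UMIs, against 8 in Igf1-negative ones, and their median percentile rank in CD9 was 48.3, against 50 in the negative ones. Monocyte markers summed to 54.6 CPM in CD206-high macrophages and 24.1 CPM in CD206-low macrophages, endocrine markers to 2241 and 3964 CPM, and the immediate-early and heat-shock genes to 5177 and 4970 CPM. Their part in the difference was not tested.

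The other genes differed less with CD206. Areg stood at 49.2 CPM in CD206-high macrophages, against 38.1 CPM in CD206-low ones (1.29, 1.14 to 1.46), Vegfa at 85.5 and 74.5 CPM (1.15, 1.05 to 1.26), and Grn at 275 and 270 CPM (1.02, 0.970 to 1.07). Pdgfb (243 and 301 CPM, 0.806), Gdf15 (56.8 and 72.2 CPM, 0.787) and Pdgfc (7.45 and 10.7 CPM, 0.693, 0.525 to 0.912) had intervals under 1, and Pdgfa was at 94.4 and 102 CPM (0.926). Without the 1 cell with 11 Pdgfc UMIs the Pdgfc ratio was 0.756, with an interval that included 1 (0.570 to 1.001). Hbegf was at 8.25 and 7.47 CPM (1.10, 0.823 to 1.48), and at 1.72 (1.23 to 2.42) without the cell with 32 UMIs. The 9 genes had a median log2 ratio of 0.03, and all genes −0.02.

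Values by CD9 were also taken within terciles of CD206. The log2 ratio of Gdf15, CD9-high over CD9-low, was −1.27 among macrophages in the highest tercile of CD206 and 0.36 among those in the lowest, with 38.5 and 93 CPM in the CD206-high cells and 79.6 and 62.0 CPM in the CD206-low cells. That of Vegfa was 0.48 and −0.37, with 96.3 and 69.1 CPM in the CD206-high cells and 64.2 and 83.1 CPM in the CD206-low cells. Hbegf gave −1.81 and 1.42, and 1 cell held 86.5% of its UMIs in the cells high in CD9 and low in CD206. Without the cell with most UMIs in each group the 2 log2 ratios were −0.72 and −1.16 for Hbegf, −0.95 and 0.26 for Gdf15, and 0.77 and −0.46 for Vegfa. Grn was higher with CD9 in both, at 301 and 233 CPM in CD206-high cells and 363 and 230 CPM in CD206-low cells. The difference between the 2 CD206 terciles was not tested, since the cells come from 1 pool.

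**Figure D5:**
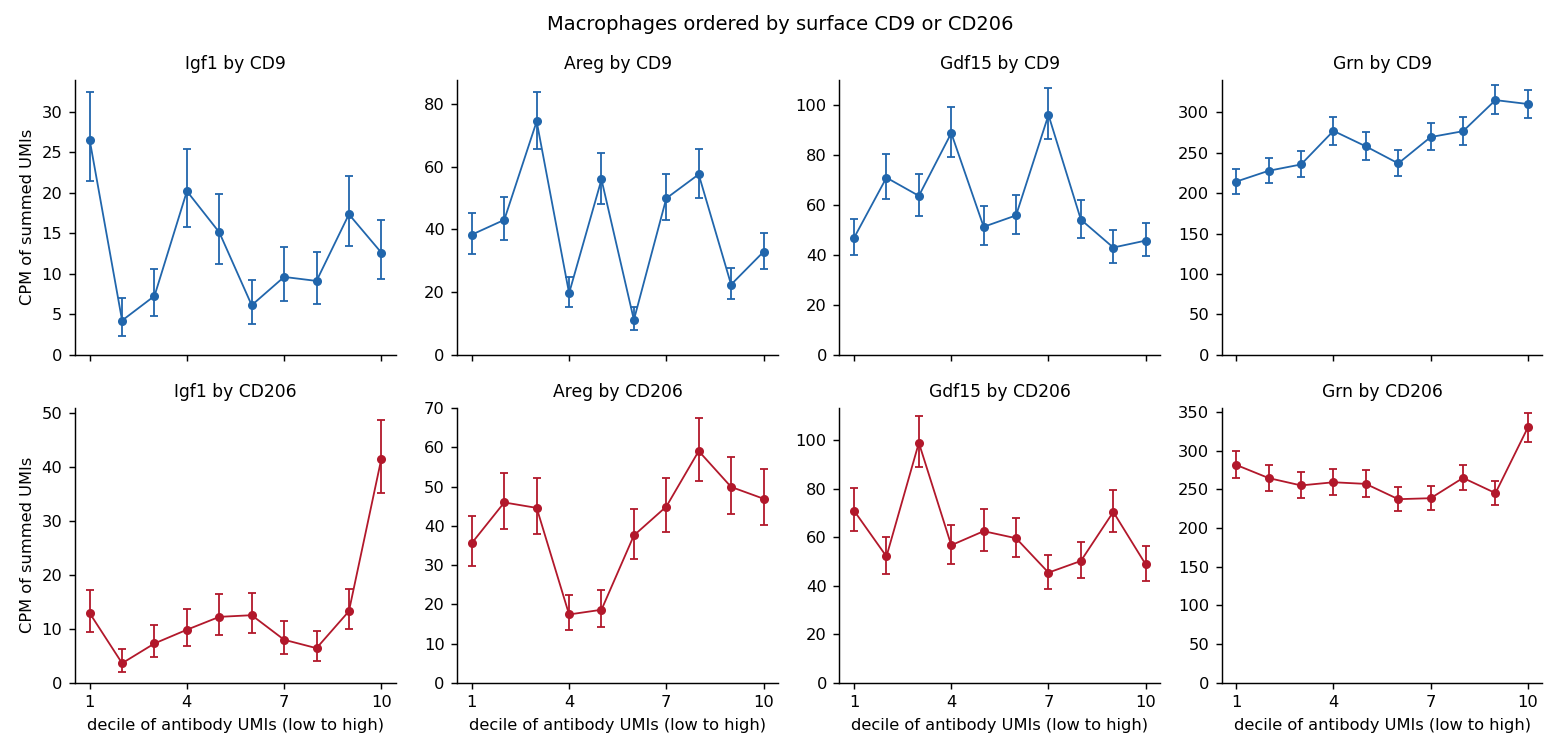
Levels (CPM of summed UMIs, linear axes from 0) of Igf1, Areg, Gdf15 and Grn in macrophages grouped by deciles of CD9 (top, blue) and CD206 (bottom, red) antibody UMIs, low to high, 172 or 180 cells each, with exact 95% Poisson intervals. Igf1 stands at 41.5 CPM in the highest decile of CD206, and Grn at 214 CPM in the lowest and 310 CPM in the highest decile of CD9.

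Listed companion genes that passed 1.5-fold with CD9 stand beside 6.05% of all genes higher and 2.69% lower. Igfbp7 (3.85-fold, 2.45 to 6.29) and Igfbp4 (2.08-fold, 1.49 to 2.93), IGF-binding protein genes, were higher in CD9-high macrophages, as was Insr (1.56-fold). Slpi (6.85-fold, 5.39 to 8.81), whose product shields progranulin from proteases, and Gpnmb (6.33-fold, 5.02 to 8.07) were higher, 2 of 11 tested progranulin-handling genes, Grn included. Mitf (0.842-fold, 0.811 to 0.873) and Tfeb (0.855-fold, 0.764 to 0.957) did not pass 1.5-fold. Of 10 tested release and activation genes, 3 were higher and 1 lower. They were Cd9 (7.23-fold), whose product defines the groups, Adam8 (2.31-fold) and Adam15 (1.51-fold), and Plau (0.467-fold, 0.444 to 0.491). Nupr1 was 4.26-fold higher and Atf3 0.572-fold, both stress-response transcription regulators listed with Gdf15. None of the 8 hypoxia genes tested, Vegfa among them, and none of 7 other growth factors tested differed by 1.5-fold.

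With CD206, where 2.52% of all genes were higher and 1.58% lower, Nrg4 (2.69-fold, 1.85 to 3.98), Inhba (2.40-fold, 1.54 to 3.83), Nupr1 (1.98-fold), Igfbp4 (1.63-fold) and Slpi (1.56-fold) were higher. Plau was again lower (0.578-fold, 0.551 to 0.607).

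Across the 17 clusters of at least 20 cells, the genes most like each factor were found by Pearson's r of log2(CPM + 10), as a description of clusters that share 1 library and differ in depth. Grn was most like Ctsh (r = 0.98) and Lgmn (0.97), lysosomal proteases. Pdgfb was most like Tmbim1 (0.96), and Map7d1 and App (0.87 each) were among the 5 genes nearest to Pdgfa. Gdf15 was most like Homer3 (0.91), with Mafg and Sqstm1 (0.88 each) among its 5 nearest, and Areg was most like Ccnf (0.75), with Cxcl1 (0.68) and Il1a (0.67) next. Hbegf was most like Uaca, Igfbp7, Fermt2, Flt1 and Col4a1 (0.88 to 0.91). Flt1 is itself one of the endothelial markers, and over the 10 macrophage-like clusters alone these 5 genes gave r between −0.40 and 0.30. Vegfa was most like Sirt1 (0.82), which reached 0.92 over the macrophage-like clusters. Igf1 and Pdgfc had fewer than 500 UMIs and were not ranked.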

How the data were processed

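The deposited matrix of 1 pooled sample held whole-number UMI counts for 32285 genes and 2 antibody tags in 2237 barcodes, none repeated, which Cell Ranger 8.0.1 made, per the file headers. Per the submitters' processing notes the genome build was mm10, and both libraries, mRNA and antibody tags, share this matrix. Kept barcodes had 200 or more genes and no more than 10% of counts from mitochondrial genes (2215). Scrublet marked 7 (0.316%), too few to have worked, so the 40 highest scores were removed (0.8% per 1000 barcodes), leaving 2175. Clustering used 2000 variable genes, 30 components, 15 neighbours and resolution 1 (scanpy 1.11.5, leidenalg 0.10.2) and gave 19 clusters, named from marker lists, after the growth factors, listed genes, Cd9 and Mrc1 were left out. Counts per class were scaled to CPM, with exact Poisson intervals, exact conditional intervals for ratios and Clopper-Pearson intervals for shares (scipy 1.17.1). PCR duplicates were collapsed by UMI, and intervals cover counting error only. A difference of 1.5-fold with at least 100 UMIs in both groups together counted as a call, and no test or p-value is given because there is no replicate. Antibody ranges are the upper and lower 600 macrophages after ranking within 10 depth classes. Shares were also computed with cells thinned to 10000 UMIs, and for Vegfa also to 5000 UMIs, leaving out shallower cells. Named beside the 9 genes are listed genes past 1.5-fold, up to 4 in each list for each direction, taken by how far their interval lay from 1, and the 5 genes with the highest r to each growth factor with 500 UMIs or more. The ratio and thinning steps were tested on simulated data. The 9 genes and the lists were chosen with earlier results of these data known. Some genes that these rules name are not reported here.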

Additional observations from a re-analysis of the deposited data

How the results depend on the processing

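No paired analysis was possible because the series holds 1 pooled sample, read as both libraries. Against lymphocytes, Areg turned from a log2 ratio of −0.79 to 0.15 without the 8 ILC2-like cells, and the count of genes at least 1.5-fold lower went to 0, from 1, there, at 2-fold and without the cell with most UMIs in each group. For CD9, the count higher was 1, not 0, with the C1q gate at 4000 CPM and with raw antibody ranking, and 2 within the lowest CD206 tercile. The count lower with CD9 was 2, not 0, without the cell with most UMIs, within the lowest CD206 tercile and without the Gpnmb-led cluster, and 3 within the highest CD206 tercile. For CD206, the count higher was 2, not 1, without the cell with most UMIs, with raw ranking and within the highest CD9 tercile, and 3 within the lowest CD9 tercile. The count lower with CD206 was 1, not 0, with no doublets removed and after removing the 10% of cells with most endocrine and acinar RNA, and 3 within the highest CD9 tercile. The cause of these changes was not tested. The log2 ratio of Igf1 with CD206 was above 0 in all 17 alternatives, from 0.37 (−0.43 to 1.12; lowest CD9 tercile without each group's top cell) to 3.26, and that of Grn with CD9 lay between 0.22 and 0.66. Leaving out the ILC2-like cells, the top cell of each group, the Gpnmb-led cluster or the shallow clusters was chosen after seeing the data. Few UMIs of Igf1, Pdgfc and Hbegf, 51 dendritic cells, 8 ILC2-like cells and 1 pool limit precision.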
